A study of Mus musculus with 6 samples.

Results

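The tissue kallikrein gene cluster of mouse chromosome 7 was described here from 10 listed genes, Klk1, Klk1b3, Klk1b4, Klk1b5, Klk1b11, Klk1b21, Klk1b22, Klk1b24, Klk1b26 and Klk1b27, in NZO and B6-ob/ob mouse islets. Probes were taken by the gene name in the scanner files: 9 of 41174 non-control probes carried the name of 8 of the 10 genes, and Klk1b5 and Klk1b22 had no probe by name and were not analysed here. The genes were chosen by the strain difference of these same array intensities, since neighbouring members differed together, so their strain differences are given as a description, with no test. NZO mice (NZO/HiBomDife, labelled diabetes-prone; 3 samples, replicates 10, 11 and 12) were set against B6-ob/ob mice (C57BL/6.V-Lepob/ob, which carry the ob mutation of the leptin gene in homozygous form, labelled diabetes-resistant; 3 samples, replicates 4, 5 and 6). All mice were male, were fed a high-fat diet free of carbohydrate up to 18 weeks of age, and gave their islets 48 h after carbohydrate was put back into the diet. There were no samples from before the switch, so every value below is a strain comparison under the same diet, and the leptin mutation and the strain background cannot be told apart. Cy3-labelled cRNA of each sample was hybridised to a 1-colour Agilent mouse array, with 1 array per sample. Whether each sample came from a single mouse or from pooled mice is not given in the labels.

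Tissue kallikreins are secreted serine proteases of the trypsin type. Klk1 is the true tissue kallikrein, which cuts kininogen to release kinins, small peptides that act through bradykinin receptors. In the mouse the gene has been copied many times, and the Klk1b copies next to it are best known from the submandibular gland, where they are secreted into the saliva and where Klk1b22, Klk1b26 and Klk1b9 bind epidermal growth factor. The exocrine pancreas, which surrounds the islets, also makes tissue kallikrein. RefSeq's table for GRCm38.p6 lists 24 genes of this cluster, 14 coding and 10 pseudogenes, all so alike that 1 probe may bind the product of more than 1 gene.

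The probes that carry the comparison are 60 bases long. They are shown here because shared runs of bases bear on which transcript a probe reads. Coordinates are those of the files, in mm9. The first set is the probes named Klk1 (chr7:51484170-51484325), Klk1b4 (chr7:51466302-51466457) and V00829 (chr7:51217671-51217730), of which V00829 is no listed gene and stands for a genomic record that the files describe as the kallikrein gene mGK-1 and a fragment of mGK-2. The capitals mark the run of 28 bases that Klk1 and Klk1b4 share and, in V00829, the run of 29 bases that it shares with Klk1b4. The span of the Klk1 and Klk1b4 probes on the genome, 156 bases, is longer than the probe, as for a probe across an exon junction.
Klk1: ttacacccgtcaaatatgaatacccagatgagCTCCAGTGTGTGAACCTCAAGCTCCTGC
Klk1b4: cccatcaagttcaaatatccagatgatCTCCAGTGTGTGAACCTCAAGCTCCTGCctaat
V00829: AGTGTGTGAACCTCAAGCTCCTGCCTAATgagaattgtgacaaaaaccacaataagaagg

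The second set is the Klk1b3 probe at chr7:51457064-51457122, called probe a, and the probe named Egfbp2 at chr7:51271716-51272144, a name that RefSeq lists as a synonym of Klk1b26. The capitals mark the 23 bases they share.
Klk1b3 a: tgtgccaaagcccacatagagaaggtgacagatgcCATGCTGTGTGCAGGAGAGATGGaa
Egfbp2: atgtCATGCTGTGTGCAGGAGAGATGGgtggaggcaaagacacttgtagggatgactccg

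The third set is the most alike pair of probes, Klk1b11 (chr7:51255119-51255178) and Klk1b27 (chr7:51311959-51312018), identical at 54 of 60 aligned bases, with Klk1b24 (chr7:51447692-51447751), identical to Klk1b27 at 47 of 53 aligned bases. The capitals mark the 22 bases that Klk1b11 and Klk1b27 share and the 15 bases that Klk1b24 shares with Klk1b27. The Klk1b26 probe (chr7:51271516-51271671) is shown last, with the 12 bases in capitals that it shares with the probe of Klk1b8, a further gene of the cluster.
Klk1b11: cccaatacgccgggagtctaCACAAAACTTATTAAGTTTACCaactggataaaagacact
Klk1b27: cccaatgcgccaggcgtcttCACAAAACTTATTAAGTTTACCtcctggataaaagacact
Klk1b24: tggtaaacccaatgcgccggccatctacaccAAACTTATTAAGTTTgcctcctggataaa
Klk1b26: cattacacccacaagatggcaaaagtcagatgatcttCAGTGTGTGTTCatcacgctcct

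Over all 41174 probes, those that shared 18 or more bases in a row with a listed probe were all on chromosome 7. They were Klk1, Klk1b4 and V00829 with one another, Klk1b3 a with Egfbp2, Klk1b11 with Klk1b27, and Klk1b24 with 1700127D06Rik, which RefSeq lists as a synonym of the pseudogene Klk1b7-ps. The second Klk1b3 probe, called probe b (chr7:51453655-51455660), Klk1b21 (chr7:51359794-51359853) and Klk1b26 shared no such run with any probe. The accessions in the files overlap too. Probe b carries those of 4 genes (Klk1b3, Klk1b16, Klk1 and Klk1b9), Klk1b21 those of 3 (Klk1b21, Klk1b24 and Klk1b11), and Klk1b24 those of 2 (Klk1b24 and Klk1b22). The values of these 3 probes are therefore uncertain as to gene. The Klk1b21 probe lies in mm9 between the probes of Klk1b27 and Klk1b16, where RefSeq's gene order has Klk1b22, whereas RefSeq places Klk1b21 between Klk1b11 and Klk1b26.

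Of the 9 listed probes, 6 probes of 5 genes were well above background, by the scanner software's call, on at least 3 of 6 arrays, and 4 of them on all 6. All values below are log2 of the processed intensity minus the 75th percentile of the array, and a level is compared only within a probe. The 3 NZO arrays all lay above the 3 B6-ob/ob arrays for 8 of 9 probes, the exception being Klk1b26. Over all probes of the array the same was true of 13.6%, over the probes above background on at least 3 arrays of 18.6%, and over the probes above background on all 6 arrays of 17.5%. Nothing is read from these counts, since the strain difference chose the genes. Directions follow the labels of the scanner files. The authors' value table gives the opposite direction for every listed probe of it above background on at least 3 arrays, and each of its columns follows an array of the other strain.

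Klk1 was higher in NZO islets. Its values were 3.98, 3.65 and 4.47 in NZO replicates 10, 11 and 12, against 2.21, 0.99 and 0.24 in B6-ob/ob replicates 4, 5 and 6. On the linear scale these are intensities of 6824, 4294 and 9047 in NZO and of 1703, 899 and 520 in B6-ob/ob islets. The strains did not overlap, and the B6-ob/ob arrays were spread more widely than the NZO arrays. The means were 4.03 ± 0.41 in NZO and 1.15 ± 0.99 in B6-ob/ob islets (SD, n = 3 each), a difference of 2.89, or 7.39-fold. The arrays lay on 3 slides. Within slide 2, which held NZO 10 and B6-ob/ob 4, the Klk1 difference was 1.77, and within slide 3, which held NZO 11 and B6-ob/ob 5 and 6, it was 3.04. With the slide as a block it was 2.49.

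Klk1b3, a secreted protease of the family, had probes a and b by name, of which b is uncertain as to gene. Probe a gave 4.06, 3.75 and 4.57 in NZO against 2.37, 1.07 and 0.28 in B6-ob/ob islets, a difference of 2.89. Probe b gave 0.88, 0.44 and 1.65 in NZO against -1.06, -1.96 and -2.34 in B6-ob/ob islets, a difference of 2.78. Neither probe showed an overlap of the strains, and on both NZO 12 was the highest array and B6-ob/ob 6 the lowest.

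Klk1b4, which lacks protease activity, gave 2.36, 2.17 and 2.93 in NZO against 0.71, -0.66 and -1.25 in B6-ob/ob islets. The difference was 2.89 (means 2.49 ± 0.40 and -0.40 ± 1.00, SD, n = 3 each), with no overlap of the strains. Within slide 2 it was 1.65 for Klk1b4, 1.69 for Klk1b3 a and 1.95 for Klk1b3 b, and within slide 3 it was 3.13, 3.07 and 2.59 for the same probes. All 4 probes above background on every array were thus higher in NZO on both slides that held both strains, and by less on slide 2.

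The Klk1b21 and Klk1b24 probes were near the detection limit in B6-ob/ob islets. Klk1b21 gave -1.96, -2.59 and -1.25 in NZO, all above background, against -4.10, -6.57 and -6.62 in B6-ob/ob islets, of which only replicate 4 was above background. Its measured difference was 3.83. With the background corrected by normexp and the arrays quantile normalised, it was 1.20, so its size depends on how low intensities are treated. Klk1b24 gave -3.83, -4.32 and -3.12 in NZO, all above background, against -5.60, -7.28 and -7.91 in B6-ob/ob islets, none of them above background. With the B6-ob/ob values raised to the lowest signal above background on each array, Klk1b24 was 3.24-fold higher in NZO islets. This is no firm lower bound. With normexp and quantile normalisation the measured Klk1b24 difference, 3.17, was 0.57.

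Klk1b11 was well above background only on NZO 10. It gave -3.55, -4.51 and -5.33 in NZO 10, 11 and 12, against -7.18, -7.19 and -7.22 in B6-ob/ob islets. NZO 10 was thus its highest array and NZO 12 its lowest, unlike the other listed probes above background, whose highest was NZO 12. Klk1b27, whose probe differs from that of Klk1b11 at few bases, was not above background on any array and gave -6.11, -5.95 and -5.27 in NZO against -7.39, -7.47 and -7.45 in B6-ob/ob islets. Klk1b26, also known as an epidermal growth factor binding protein, was not above background on any array, gave -7.47, -6.94 and -7.24 in NZO against -7.30, -7.30 and -7.29 in B6-ob/ob islets, and was the only listed probe whose strains overlapped. For the threshold of 3 arrays, Klk1b24 stood just inside with 3 arrays above background and Klk1b11 just outside with 1.

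**Figure D1:**
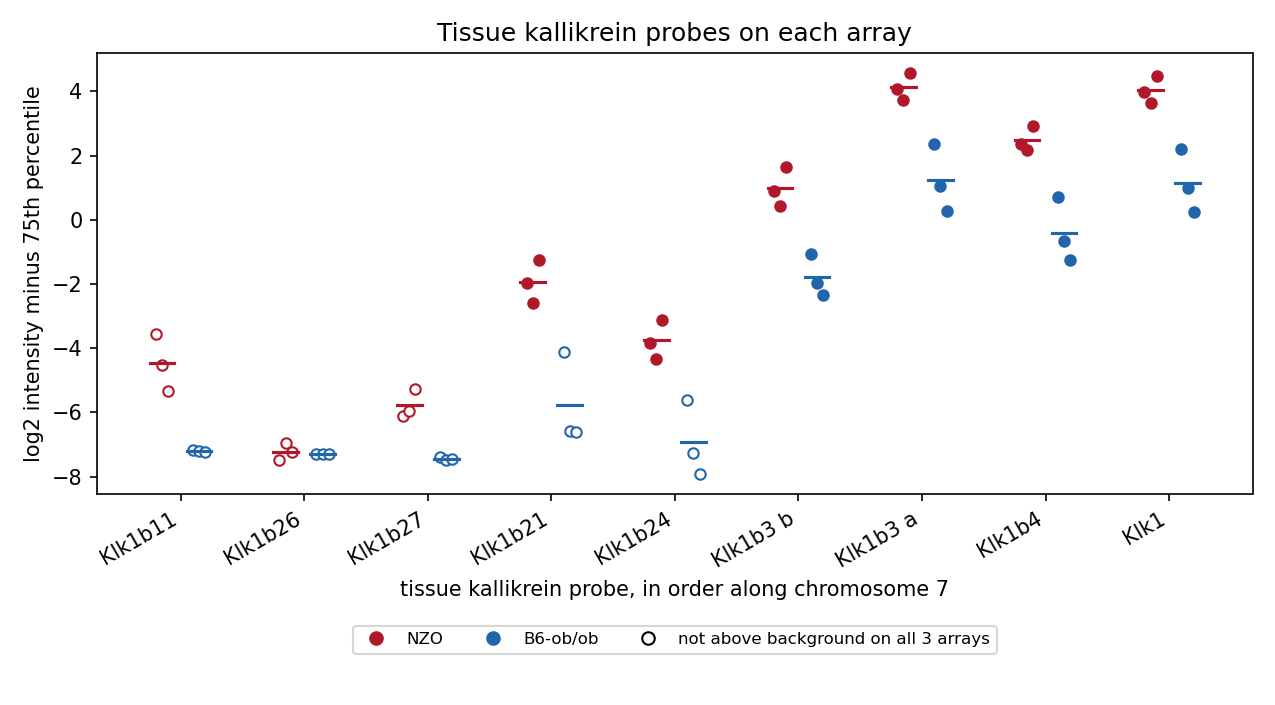
Values of the 9 probes on each array (y axis, log2 intensity minus the array's 75th percentile), with probes in their mm9 order along the x axis and NZO left of B6-ob/ob for each. Each point is 1 array, each bar the mean of 3, and open points mark a strain in which the probe was not above background on all 3 arrays. Levels of different probes are not comparable. The NZO points lie above the B6-ob/ob points for every probe but Klk1b26.

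The array holds 9 further probes between 1700127D06Rik and Klk1, and all were examined, 5 of them above background on all 6 arrays. Klk1b8 gave 2.80, 2.59 and 3.43 in NZO against 1.12, -0.24 and -0.95 in B6-ob/ob islets, a difference of 2.97 (SE 0.54, limma adjusted p = 0.0115). Egfbp2 gave 2.16, 1.95 and 2.78 in NZO against 0.60, -0.92 and -1.37 in B6-ob/ob islets, a difference of 2.86 (SE 0.53, limma adjusted p = 0.0123). Neither had overlapping strains. Both calls passed the test in the fit over all 16417 genes, in which 13.2% of genes were called higher in NZO islets and 9.00% lower. Without B6-ob/ob 5 both were lost, with limma adjusted p of 0.0516 for Klk1b8 and 0.0543 for Egfbp2. Klk1b8 is a neighbour of the listed genes in a region picked for its strain difference. Egfbp2 is RefSeq's synonym of the listed gene Klk1b26, so its gene was itself among those chosen by this contrast. Neither p-value is therefore independent evidence of the strain difference, and that of Egfbp2 is no test of it.

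The Egfbp2 and Klk1b26 probes name each other's accessions and lie next to each other on the genome, but only the Egfbp2 probe was above background. V00829 differed by 2.83 and an unnamed probe (chr7:51476018-51476076) by 2.93. The unnamed probe lies between the probes of Klk1b4 and Klk1, where RefSeq's order has Klk1b5, and its bases are identical to those of the Klk1b16 probe at 42 of 50 aligned positions; no gene name was given to it here. It gave intensities of 28004, 19721 and 38348 in NZO against 6995, 3615 and 2274 in B6-ob/ob islets, with no overlap. NP064425, also in the interval, differed by 1.57 (limma adjusted p = 0.0149), and by 0.76 with normexp and quantile normalisation. Its call was lost without B6-ob/ob 5 (limma adjusted p = 0.0631). Like Klk1b8, NP064425 lies in a region picked for its strain difference, so its p-value is no independent evidence of that difference.

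The other 4 probes, 1700127D06Rik, Klk1b1, Klk1b9 and Klk1b16, were not above background on any array. Their intensities stayed between 1.86 and 2.81 on all 6 arrays. V00829 was above background on all 6 arrays, and the Klk1b1 probe on none. The files describe the V00829 record as mGK-1, RefSeq's synonym for Klk1b1, and a fragment of mGK-2. The V00829 probe lies between those of Klk1b8 and Klk1b1, where RefSeq's order has the pseudogene Klk1b2-ps, synonym mGK-2. Which gene the V00829 probe reads was not tested. Beyond Klk1, the next gene, 1700028J19Rik, differed by 0.41 and the brighter probe of 2410002F23Rik by 0.02, and for both the strains overlapped.

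**Figure D2:**
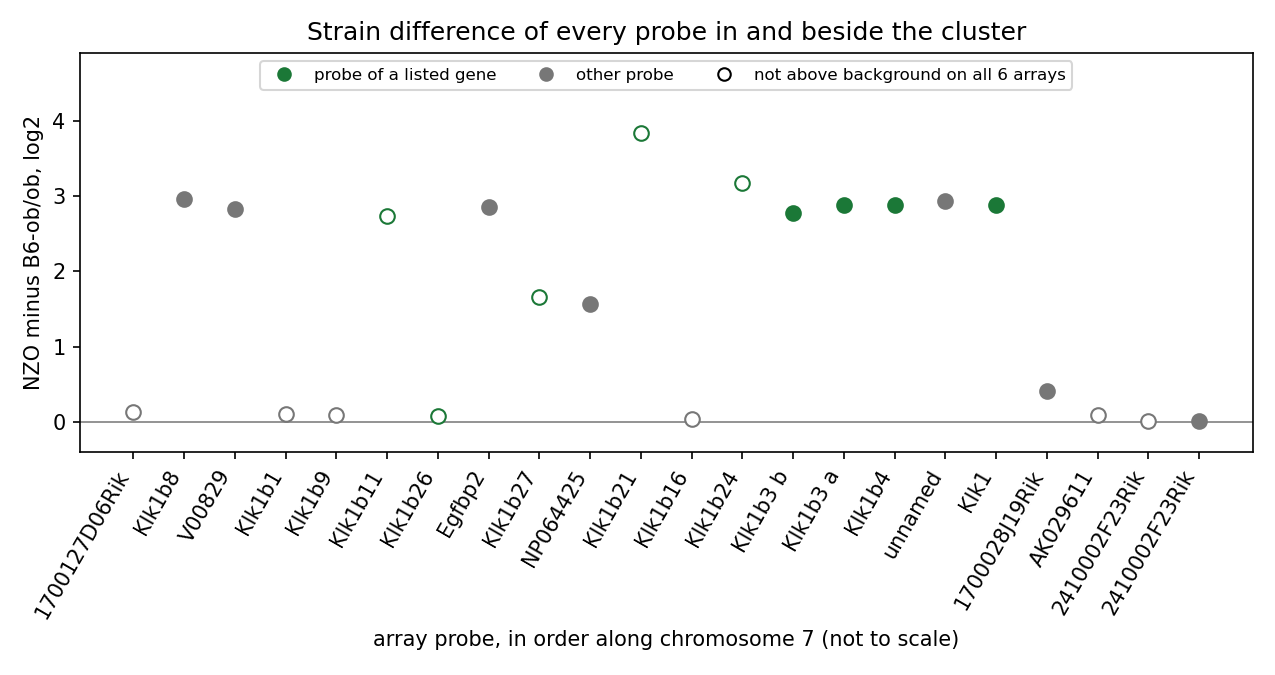
Difference of the means, NZO minus B6-ob/ob (y axis, log2), for every probe from 1700127D06Rik to 2410002F23Rik in mm9 order (x axis, not to scale). Green marks probes of the listed genes, grey the others, and open points probes not above background on all 6 arrays. Filled points within the cluster lie between 1.57 and 2.97, and those beyond Klk1 at 0.41 and 0.02.

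The probes also varied together among arrays of the same strain. All 4 listed probes above background on every array had the order NZO 12 over 10 over 11 and B6-ob/ob 4 over 5 over 6, as had 4 of the 5 other such probes of the cluster, all but NP064425. Of all probes above background on 6 arrays 2.60% had that order, a share given for scale only. The order was read from the listed probes, which were picked by the strain difference. Its B6-ob/ob part was also that of 28 of the 30 acinar markers described below. The cluster probes share each array's RNA and come from alike genes, so they are not separate instances. After each strain's mean was taken off, Klk1 and Klk1b3 a correlated at Pearson r = 0.9998 over the 6 arrays and Klk1 and Klk1b4 at r = 0.9944, values given as a description since the probes share each array's RNA. The log2 ratio of Klk1 to Klk1b3 a ranged over only 0.12 across the 6 arrays, while the Klk1 level ran from 0.24 to 4.47.

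This shared profile was set beside the shared sequence for the 36 pairs of the 9 cluster probes above background on all arrays. The 4 pairs that share 18 or more bases in a row had log2 ratios ranging over 0.17 to 0.34 across arrays. The 29 pairs that share fewer than 12 ranged over 0.12 to 2.13. Among the 21 pairs without NP064425 and Klk1b3 b the range was 0.12 to 0.34 whatever run they shared, and the closest profiles were those of Klk1 and Klk1b3 a, whose longest common run is 6 bases. Pairs of Klk1b3 b with the others, NP064425 aside, ranged over 0.62 to 0.81, although probe a reads the same gene by name. Binding of a probe to the product of another gene of the family was not tested, since only the probes' own sequences were compared.

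**Figure D3:**
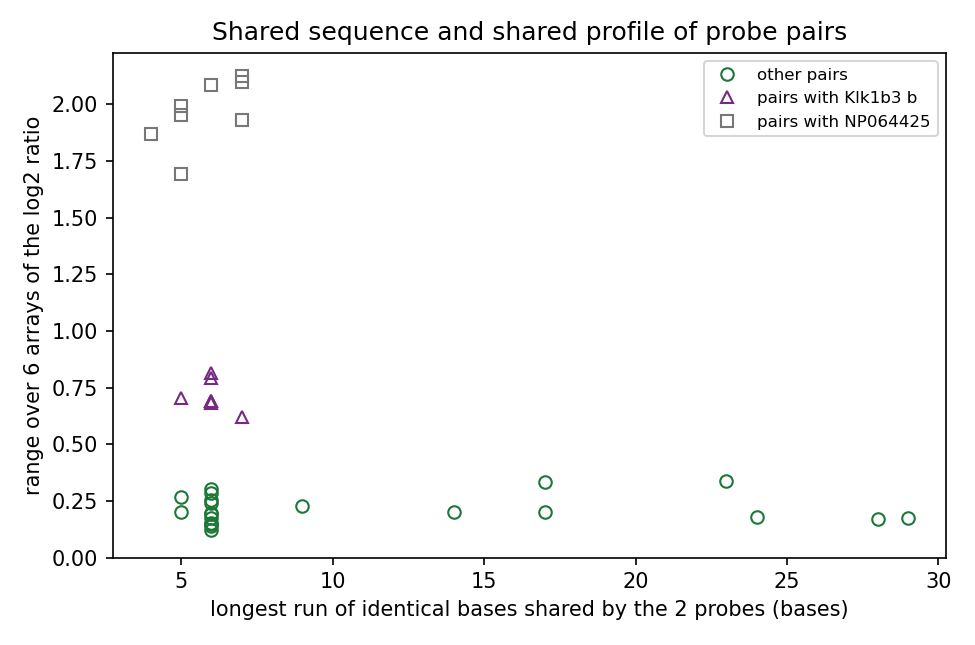
The longest run of identical bases shared by each of 36 probe pairs (x axis, bases) against the range of their log2 ratio over 6 arrays (y axis). Squares are the 8 pairs with NP064425 (1.69 to 2.13), triangles the 7 other pairs with Klk1b3 b (0.62 to 0.81) and circles the remaining 21 pairs (0.12 to 0.34), which lie at a like height over short and long runs.

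The promoter windows of the members, 250 bases before to 50 after the RefSeq start (GRCm38.p6), were examined because the genes moved together. All 10 were found, all on the plus strand. Local alignments of the 36 pairs of Klk1b windows were identical at 78.9% to 98.1% of columns, and those of Klk1 with the 9 Klk1b windows at 78.7% to 85.0%. The motif TTTAAA, an AT-rich element of the TATA kind, was in 9 of the 10 windows, all but Klk1, against 13.2% of 32851 RefSeq promoters. TGGGAA, the core bound by RBPJ-type factors including the acinar factor Rbpjl, was in 9, all but Klk1b11, against 25.6% of all promoters. CACCTG, an E-box, was in 9, all but Klk1b21, against 20.2%. Both strands were searched, and no match overlapped another. The windows are placed by the RefSeq start, which does not fall at the same point of each copy. TGGGAA lay at -126 in Klk1 and at -221 in Klk1b4, counted from the start. TTTAAA lay from -48 in Klk1b4 to 4 in Klk1b21, where it is past the start. The Klk1 window therefore need not cover the stretch in which the others have TTTAAA. Since the windows are near copies of one another, these counts are not independent, and a match says only that the letters are there. The 250 bases before the start are shown for the genes whose probes were above background on all arrays, with TTTAAA and TGGGAA in capitals, at chr7:44225110-44225359 for Klk1, chr7:44197941-44198190 for Klk1b3 and chr7:44207183-44207432 for Klk1b4.
Klk1: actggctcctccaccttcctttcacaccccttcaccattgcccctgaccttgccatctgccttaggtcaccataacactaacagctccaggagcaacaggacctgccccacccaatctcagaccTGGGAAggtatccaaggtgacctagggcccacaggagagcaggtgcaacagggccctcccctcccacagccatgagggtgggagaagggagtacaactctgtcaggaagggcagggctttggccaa
Klk1b3: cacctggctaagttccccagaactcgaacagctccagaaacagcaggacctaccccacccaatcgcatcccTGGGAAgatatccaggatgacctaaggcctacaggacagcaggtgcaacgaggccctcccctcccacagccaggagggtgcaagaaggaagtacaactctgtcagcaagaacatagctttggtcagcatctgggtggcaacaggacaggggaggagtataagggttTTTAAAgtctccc
Klk1b4: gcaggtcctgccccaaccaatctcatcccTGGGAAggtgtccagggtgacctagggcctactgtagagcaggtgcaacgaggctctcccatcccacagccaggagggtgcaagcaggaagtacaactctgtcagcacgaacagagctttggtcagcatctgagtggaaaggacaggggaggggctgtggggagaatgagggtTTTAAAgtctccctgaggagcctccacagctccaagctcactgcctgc

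Islet preparations can hold exocrine tissue, so markers of acinar cells, the enzyme-making cells of the pancreas, were examined beside the kallikreins. Of 31 acinar markers tested, 27 passed the test as higher in NZO islets and none as lower, against 13.2% and 9.00% of all genes. The median difference of the acinar markers was 2.51. The changes of greatest size were those of Spink3, a trypsin inhibitor (4.81, limma adjusted p = 0.0027), Cuzd1, a zymogen granule protein (3.64, limma adjusted p = 0.0034), 1810049H19Rik, which RefSeq names Try5, a trypsin (3.17, limma adjusted p = 0.0025), and 1810010M01Rik, which RefSeq names Zg16, a zymogen granule protein (2.92, limma adjusted p = 0.0091). The log2 of the summed acinar level was 12.10 to 12.47 in NZO and 9.42 to 10.96 in B6-ob/ob islets. The count of acinar markers called was 16 with the slide as a block and 16 without B6-ob/ob 5. Their part in the kallikrein difference was not tested. In these bulk samples, more cells of a type and more RNA per cell cannot be told apart.

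The mean of the 30 acinar markers above background on all arrays was 5.64, 5.86 and 6.11 in NZO against 4.36, 3.57 and 2.83 in B6-ob/ob islets, a difference of 2.29. Relative to that mean, Klk1 stood at -1.67, -2.21 and -1.65 in NZO and at -2.15, -2.58 and -2.59 in B6-ob/ob islets. The Klk1 difference was then 0.60 and the strains overlapped, NZO 11 lying below B6-ob/ob 4. Klk1b3 a and Klk1b4 also differed by 0.60 relative to the acinar mean, and Klk1b3 b by 0.49.

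The order of the arrays within each strain was then compared as a count. Of the 30 acinar markers, 28 had the order B6-ob/ob 4 over 5 over 6, as the 4 kallikrein probes had. In NZO islets 23 of the 30 were lowest on replicate 10 and 2 on replicate 11, which was the lowest array for the 4 kallikrein probes. Of these 30, only Pnliprp1, a pancreatic lipase-related protein, and Ela1, an elastase, had the full order of the kallikreins. Some markers of other cells, described below, had it too. Above background on all arrays, these were the stromal markers Dcn, Lum, Col6a1, Col1a2 and Vim and the endothelial markers Vwf, Pecam1, Tie1 and Plvap. The other stromal and endothelial markers above background on all arrays had other orders.

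**Figure D4:**
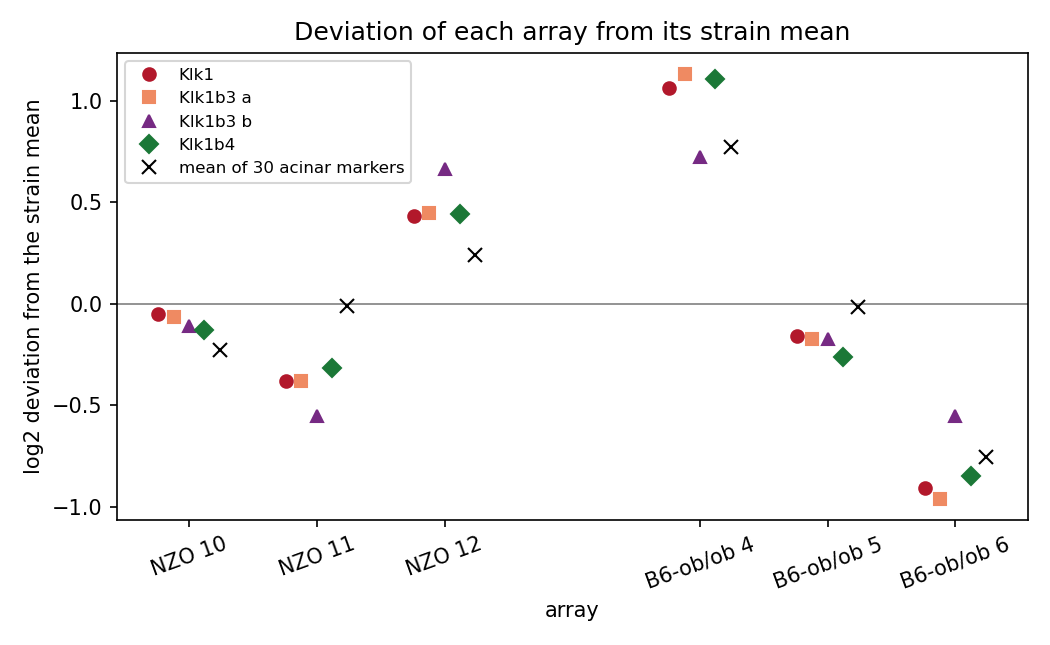
Deviation of each array from its strain mean (y axis, log2) for the 4 listed probes above background on all arrays and for the mean of 30 acinar markers (crosses), with the 6 arrays on the x axis. On NZO 11 the kallikrein probes lie at -0.32 to -0.55 with the acinar mean near 0, and on B6-ob/ob 4 all are above their strain mean.

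Markers of other cells moved with the strains too. Of the stromal markers 13 of 14 passed the test as higher in NZO islets, against 13.2% of all genes, with a log2 summed level of 6.30 to 6.46 in NZO and 4.31 to 5.07 in B6-ob/ob islets. Of the ductal markers 8 of 13 passed it as higher (9.05 to 9.53 in NZO and 8.54 to 9.51 in B6-ob/ob islets), of the macrophage markers 6 of 9 (3.93 to 4.92 and 2.78 to 2.98), and of the endothelial markers 3 of 12 (6.20 to 6.44 and 5.99 to 6.09). Of 18 islet endocrine markers 17 had a probe and were tested, with 0 called higher, 1 called lower and a median difference of 0.02, and their summed level was 12.29 to 12.52 in NZO and 12.25 to 12.54 in B6-ob/ob islets. All 17 were above background on all 6 arrays.

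Genes were then ranked by Pearson r with Klk1 over the 6 arrays, leaving out the listed genes and probes with no gene symbol. The most alike were Ptgs1, a cyclooxygenase (r = 0.9997), Klk1b8 (r = 0.9995) and Smoc2, a matrix protein (r = 0.9990). Pnliprp1 (r = 0.9983) and Htra1, a secreted serine protease (r = 0.9982), came next. Of the listed probes left out, Klk1b3 a stood at r = 0.9998 with Klk1 and Klk1b4 at r = 0.9991. For Klk1b3 a the same ranking gave Ptgs1 (r = 0.9996), Klk1b8 (r = 0.9996) and Smoc2 (r = 0.9986). Pnliprp1 (r = 0.9983) and Dcn, a proteoglycan of fibroblasts (r = 0.9980), came next. Among the probes with no gene symbol, V00829 (r = 0.9995 with Klk1) and the unnamed probe (r = 0.9992) stood as near. The strain difference makes up most of such an r, and the differences of these genes ranged from 1.38 for Ptgs1 to 2.97 for Klk1b8.

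In the wider kallikrein family few genes were detected. Of the kallikrein-related peptidases Klk4 to Klk15, which lie beside the cluster on chromosome 7, 11 had a probe and 3 were above background on at least 3 arrays. Of these 0 were called by limma, 1 with an unadjusted p under 0.05, with Klk8 at a difference of 1.15 (limma adjusted p = 0.127), Klk4 at -0.51 (limma adjusted p = 0.418) and Klk14 at 0.14 (limma adjusted p = 0.910). With the slide as a block Klk4 was called lower, at -0.96 (limma adjusted p = 0.0480), and Klk14 stood at -0.46 (limma adjusted p = 0.663). Without B6-ob/ob 4 Klk8 was called higher, at 1.59 (limma adjusted p = 0.0241). With normexp and quantile normalisation Klk8 stood at 0.27 (limma adjusted p = 0.1908). The difference between these genes and the cluster was not tested.

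Of 26 genes of kinin release, action and breakdown or otherwise tied to kallikreins, 13 were tested, 4 were higher in NZO islets and 1 was lower, against 13.2% and 9.00% of all genes, and their median difference was 0.58 against -0.03 over all genes. With the slide as a block 3 were called, and 2 without B6-ob/ob 5 and 2 without NZO 10. The substrates were below detection: Kng1 and Kng2, the kininogens, were not above background on any array, nor was Klkb1, plasma kallikrein. Of the receptors, Bdkrb1 gave a difference of 0.04 with overlapping strains, and Bdkrb2 was above background on 2 NZO arrays and no B6-ob/ob array and was not tested.

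Egf, which some kallikreins bind, fell by 0.45 (SE 0.12, limma adjusted p = 0.0468), with 0.39, 0.13 and 0.41 in NZO against 0.76, 0.81 and 0.71 in B6-ob/ob islets. The Egf call was lost with the slide as a block (limma adjusted p = 0.0991), with no filter on dim probes (limma adjusted p = 0.1018) and when any 1 of the 6 arrays was left out.

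The pathway list holds several peptidases that can cut kinins or their products. Dpp4, dipeptidyl peptidase, gave 3.07, 2.91 and 2.52 in NZO against 1.79, 1.72 and 1.69 in B6-ob/ob islets, a difference of 1.101 (SE 0.17, limma adjusted p = 0.0060). Cpm, a membrane carboxypeptidase, rose by 0.91 (SE 0.15, limma adjusted p = 0.0078) and was lost with the slide as a block (limma adjusted p = 0.0561). Cpd, another carboxypeptidase, rose by 0.85 (SE 0.21, limma adjusted p = 0.0338), but its second probe gave 0.21, and the call was lost without NZO 10, NZO 11 or any 1 of the B6-ob/ob arrays.

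The other such peptidases tested did not pass. Ace, the main kinin-degrading enzyme of the circulation, gave a difference of -0.00 with overlapping strains. Prcp, prolylcarboxypeptidase, gave 0.58 (limma adjusted p = 0.131), and Xpnpep1, an aminopeptidase, -0.10 (limma adjusted p = 0.738). Cpn1, a carboxypeptidase, gave -0.02 (limma adjusted p = 0.964), but its second probe gave -0.84. F2rl1, the protease-activated receptor that trypsin-like enzymes cut, rose by 0.87 (SE 0.17, limma adjusted p = 0.0147), and with normexp and quantile normalisation it differed by 0.19 (limma adjusted p = 0.1822). The F2rl1 call was also lost without NZO 10 and without B6-ob/ob 5. Of the inhibitors, Serpina3n gave a difference of 3.23 (limma adjusted p = 0.0659) and Serping1, the C1 inhibitor, one of 0.79 (limma adjusted p = 0.0655), and neither passed the test. Serpina3n was above background on 3 NZO arrays but only 1 B6-ob/ob array, so the size of its difference is uncertain.

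**Figure D5:**
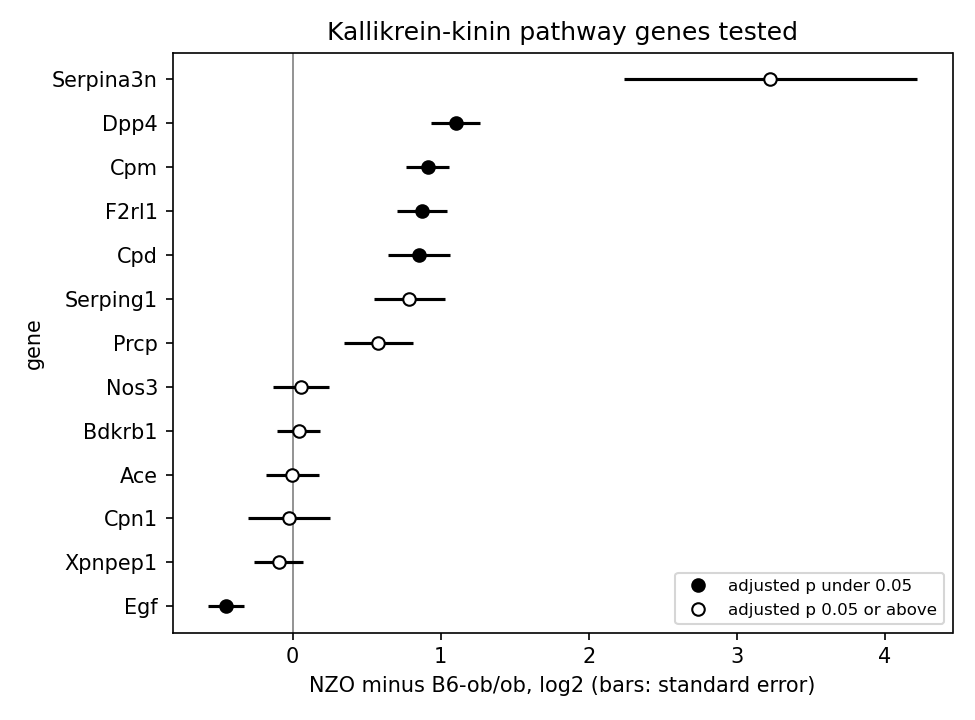
Difference NZO minus B6-ob/ob (x axis, log2) with its limma standard error (bars) for the 13 tested genes of the kallikrein-kinin list (y axis). Filled points are the 5 that passed the test, from Dpp4 at 1.101 to Egf at -0.45.

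Each array had 23621 to 24711 of 41174 probes well above background and none saturated, and 61 to 76 flagged spots were left out. In all, 3644 of 16417 genes (22.2%) differed between the strains. Ifi202b, a gene disrupted in B6 mice, was above background on 3 NZO and no B6-ob/ob array, as was H2-Ea. With the B6-ob/ob values raised as for Klk1b24, they were 46.3-fold and 10.4-fold higher in NZO. Both go with the labels of the scanner files.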

How the data were processed

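The authors deposited 1 scanner file per array with linear spot intensity, made with Agilent Feature Extraction 10.5.1.1 (design 014868, mm9) per the file headers; the submitters' processing notes name version 9.1. That software subtracted background and detrended within the array, per the file headers. The authors' value table, also linear intensity (column medians 21.4, 21.5 and 21.6 for columns labelled NZO and 22.2, 21.6 and 22.5 for columns labelled B6-ob/ob; 33074 rows matched), was an alternative: each column correlates best with an array of the other strain (r 0.97 to 0.98, against -0.52 to -0.78 with its own), so its column labels oppose those of the scanner files, which were used here.

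Here log2 of the processed intensity was lowered by each array's 75th percentile. Of 41174 probes, 24624 well above background on at least 3 arrays were kept, each gene by its brightest, and 16417 genes were tested with limma 3.58.1 in R 4.3.3, Benjamini-Hochberg threshold 0.05, a step tested on simulated data. Nothing says that replicates are separate animals, so p-values measure the spread between samples; 3 arrays a strain limit the precision. Members, lists and tests were chosen with earlier results of these data known. Genes named are all members, called kallikrein and pathway genes and the 4 acinar markers of greatest difference. Also named are the 5 unlisted genes most like Klk1 and Klk1b3, 2 label checks and all probes in the interval. V00829, NP064425 and the unnamed probe, and genes below the threshold, were named after their values were seen. Some further pathway genes are not reported here and are not among the 26 counted. Promoters were aligned locally with Biopython 1.88.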

Additional observations from a re-analysis of the deposited data

How the results depend on the processing

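The listed genes were chosen by their strain difference, so a direction that holds under other processing is no support for it. Of the kept probes, Klk1b24 passed the filter through NZO arrays alone. The difference of the kept kallikrein probes kept its direction under every alternative run for them on the scanner files (the slide as a random block and the mean over probes were run for tested genes only), and their median, 2.89, was 2.49 with the slide as a block, 1.77 within slide 2 and 2.48 to 3.45 with 1 array left out. In slide 2 it was 1.77 for Klk1, 1.69 for Klk1b3 a, 1.95 for Klk1b3 b, 1.65 for Klk1b4, 2.15 for Klk1b21 and 1.77 for Klk1b24. By the column labels of the authors' value table, in which Klk1b3 b had no matched row, directions were turned: the median was -2.91, 0 of 5 probes were higher in NZO, and differences were -2.91 for Klk1, -2.90 for Klk1b3 a, -2.90 for Klk1b4, -3.76 for Klk1b21, -3.05 for Klk1b24, -2.98 for Klk1b8, -2.87 for Egfbp2, -2.86 for V00829, -1.52 for NP064425 and -2.92 for A_51_P395309, the unnamed probe. The same table gave -1.09 for Dpp4, -0.94 for Cpm, -0.80 for F2rl1, -0.74 for Cpd, 0.44 for Egf, -4.80 for Spink3, -3.62 for Cuzd1, -3.03 for 1810049H19Rik, -2.90 for 1810010M01Rik, -1.38 for Ptgs1, -2.61 for Smoc2, -2.75 for Pnliprp1, -1.78 for Htra1, -2.68 for Dcn, -1.06 for Klk8, 0.57 for Klk4 and -0.10 for Klk14.

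With the slide as a block 2326 genes differed, among them 3 pathway genes, 16 acinar markers and 3 other kallikreins (2 higher in NZO and Klk4 lower), and Klk14, not called, was at -0.46; fewer residual degrees of freedom remain in that fit. With 1 array left out the counts ran from 1933 (without B6-ob/ob 5) to 3577 genes, 2 to 6 pathway genes, 16 to 28 acinar markers and 0 (without B6-ob/ob 5) to 3 other kallikreins. Without NZO 10, 2323 genes and 2 pathway genes were called, without NZO 11, 2137 and 3, and without B6-ob/ob 5 and 6, 2 and 3 pathway genes. Klk14 ran from -0.29 to 0.85 with 1 array left out, never called. Other causes were not tested. The median strain difference over the 24624 kept probes was -0.07 to -0.05 under the 4 scalings. No paired analysis was possible because the strains share no replicate number. Signals near background limit the probes named Klk1b11, Klk1b21, Klk1b24, Klk1b26 and Klk1b27.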
